A study of Mus musculus with 6 samples.

Results

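Genes that hold osteoblastic cells to their matrix and to each other were followed through fluid flow, with the members taken by gene symbol. The rule took integrin subunits, cadherins, protocadherins, the alpha and delta catenins, syndecans, Mcam and a set of adhesion plaque genes, and for each gene the probe with the highest mean log2 signal. It excluded Ctnnb1 and Ctnnbip1 by name and took 46 of the 8566 genes measured. Of these, 25 belong to cell-matrix adhesion and 17 to cell-cell adhesion. The other 4 (Itgb1bp1, Itgb3bp, Ctnnal1 and Ctnnbl1) match by name only and are given apart.

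The cells were MC3T3-E1, a mouse line of osteoblast precursors, here 1 clone grown in plastic wells and made to feel flow by orbital shaking. In rest-inserted flow the cells were shaken in 4 bouts, each lasting 5 min, with a rest of 10 min after each. Continuous flow ran for 60 min without rest, and no flow cells were left unshaken. RNA was taken at 1 h and at 0 h post-flow and pooled from 3 experiments onto 1 Illumina bead array per condition, so that there were 6 arrays and no replicate of any condition. Orbital shaking does not give the oscillating flow of loaded bone, and all 6 pools come from the same unmodified line.

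Integrins are pairs of an alpha and a beta subunit that bind matrix proteins outside the cell. Inside it, talins and kindlins switch them on, and vinculin, zyxin, paxillin, ILK and parvin tie them to actin in the focal adhesion, a plaque that strengthens when pulled. Syndecans bind the same matrix through their sugar chains. Cadherins join neighbouring cells and are linked to actin by alpha catenin, while delta catenin (p120) keeps them at the membrane. Vinculin and zyxin are found at cell-cell junctions too.

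Each array detected between 13472 and 14426 of 45281 probes at a detection p-value under 0.01, and of 9 osteoblast markers 5 had a probe and 4 (Col1a1, Col1a2, Sp7 and Ibsp) were detected on all 6. Of the markers of other cells, Egfl7 of 7 endothelial, Itga2b and Cd14 of 7 blood cell and none of 5 epithelial, 5 muscle and 4 adipocyte genes were detected on every array. Among the adhesion genes, 32 of 46 were detected on all 6 arrays, and 14 on fewer, 4 of them on a single array. Of the cell-matrix genes 19 of 25 were seen on all 6, and of the cell-cell genes 9 of 17. Signals are given as log2 after quantile normalization, with values under 10 set to 10, which is 3.32 on this scale. The level of a probe cannot be set against that of another probe, so only arrays are compared.

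The promoters of the genes that the cell-matrix results turn on were read from RefSeq (mouse build GRCm38.p6), as the 250 bases before the start of each gene, 5′ to 3′ on its own strand. They are Fermt2 (chr14:45530066-45530315, minus strand), Vcl (chr14:20929148-20929397, plus strand) and Zyx (chr6:42349578-42349827, plus strand), the plaque genes above no flow on all 4 flow arrays, and Itga5 (chr15:103366792-103367041, minus strand), the integrin gene that differed most at 0 h. Capitals mark the CArG box, the site of serum response factor, and the TEAD motif CATTCC, on either strand.
Fermt2: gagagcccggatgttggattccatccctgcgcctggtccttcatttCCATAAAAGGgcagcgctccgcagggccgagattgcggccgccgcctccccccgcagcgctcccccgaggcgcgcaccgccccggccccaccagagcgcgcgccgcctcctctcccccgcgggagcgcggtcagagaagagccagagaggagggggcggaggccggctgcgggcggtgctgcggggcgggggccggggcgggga
Vcl: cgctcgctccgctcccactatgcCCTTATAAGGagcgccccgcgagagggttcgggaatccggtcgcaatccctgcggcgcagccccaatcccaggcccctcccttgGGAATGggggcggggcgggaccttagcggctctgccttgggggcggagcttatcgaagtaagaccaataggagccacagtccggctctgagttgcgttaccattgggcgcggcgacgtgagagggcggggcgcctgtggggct
Zyx: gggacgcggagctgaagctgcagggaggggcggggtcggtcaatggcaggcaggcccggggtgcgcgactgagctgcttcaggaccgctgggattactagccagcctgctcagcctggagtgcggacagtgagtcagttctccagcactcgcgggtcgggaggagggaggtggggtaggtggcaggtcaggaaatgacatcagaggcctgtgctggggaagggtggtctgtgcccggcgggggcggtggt
Itga5: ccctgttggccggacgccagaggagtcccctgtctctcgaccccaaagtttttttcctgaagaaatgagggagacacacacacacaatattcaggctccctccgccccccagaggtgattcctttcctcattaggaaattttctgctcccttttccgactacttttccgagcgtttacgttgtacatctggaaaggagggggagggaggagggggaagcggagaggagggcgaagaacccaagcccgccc

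The CArG box starts 204 bases before the Fermt2 start and 227 bases before the Vcl start, and the Vcl window also holds a TEAD motif 143 bases before it. Neither motif was found in the 250 bases of Zyx or Itga5. Promoters were at hand for 27 of the 46 genes. A CArG box was present in 2 of these 27 (7.41%, Fermt2 and Vcl), against 1.62% of all 27025 genes with a promoter, and a TEAD motif in 2 (7.41%, Itgb1 and Vcl), against 14.4%. A match of letters is not a site in use.

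The first question was whether flow of either kind moved these genes. No member passed the test, and the ratios of the genes detected on all 6 arrays were mostly small. Of the 46 genes, 11 (23.9%) were above the no flow array of the same time point on all 4 flow arrays, where 11.9% of all genes were, and 4 (8.70%) were below on all 4, where 12.6% of all genes were. The 11 were Fermt2, Zyx, Vcl, Itga5, Itgav, Itga11, Sdc1 and Sdc4 on the matrix side, and Cdh2, Mcam and Pcdhgc3 on the cell-cell side. Neither no flow array detected Cdh2, Mcam or Pcdhgc3, which passed the filter only through flow arrays, so that their place above no flow was set in part by the filter. The 4 below were Itga3, Pcdha6 and the dim Tln1 and Tln2. Tln1 passed the filter only through the no flow array of 1 h, so its place was also set in part by the filter. Of the 32 genes detected on all 6 arrays 8 were above (25%; 12.1% of all such genes), all of them cell-matrix genes, and 2 were below (6.25%; 12.7%). The flow arrays of a time point share 1 no flow array, so their ratios are not independent of each other.

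By the stricter count of all 4 flow arrays above both no flow arrays, 8 genes (17.4%; 6.42% of all genes) qualified, and 0 lay below both (6.5% of all genes). These 8 were Fermt2, Zyx, Itga5, Itgav and Sdc1, and again Cdh2, Mcam and Pcdhgc3, which no unshaken array detected. Among genes detected on all 6 arrays they were 5 of 32 (15.6%; 6.5% of all such genes). The counts move with the scaling. When each array was scaled to a common median in place of quantile normalization, 6 genes were above on all 4 flow arrays (13%; 5.5% of all genes), and the median ratio of all genes itself moved to -0.13 for rest-inserted flow at 0 h. All 4 flow arrays were then above both no flow arrays in 4 genes (8.7%; 2.28% of all genes), Itgav, Sdc1, Cdh2 and Mcam, and below both in 0 (9.02% of all genes). Vcl was then above the no flow array of its time point on 2 arrays, Zyx and Itga11 on 3 and Sdc4 on 2, while Fermt2, Itga5, Itgav and Sdc1 stayed above on all 4.

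**Figure D1:**
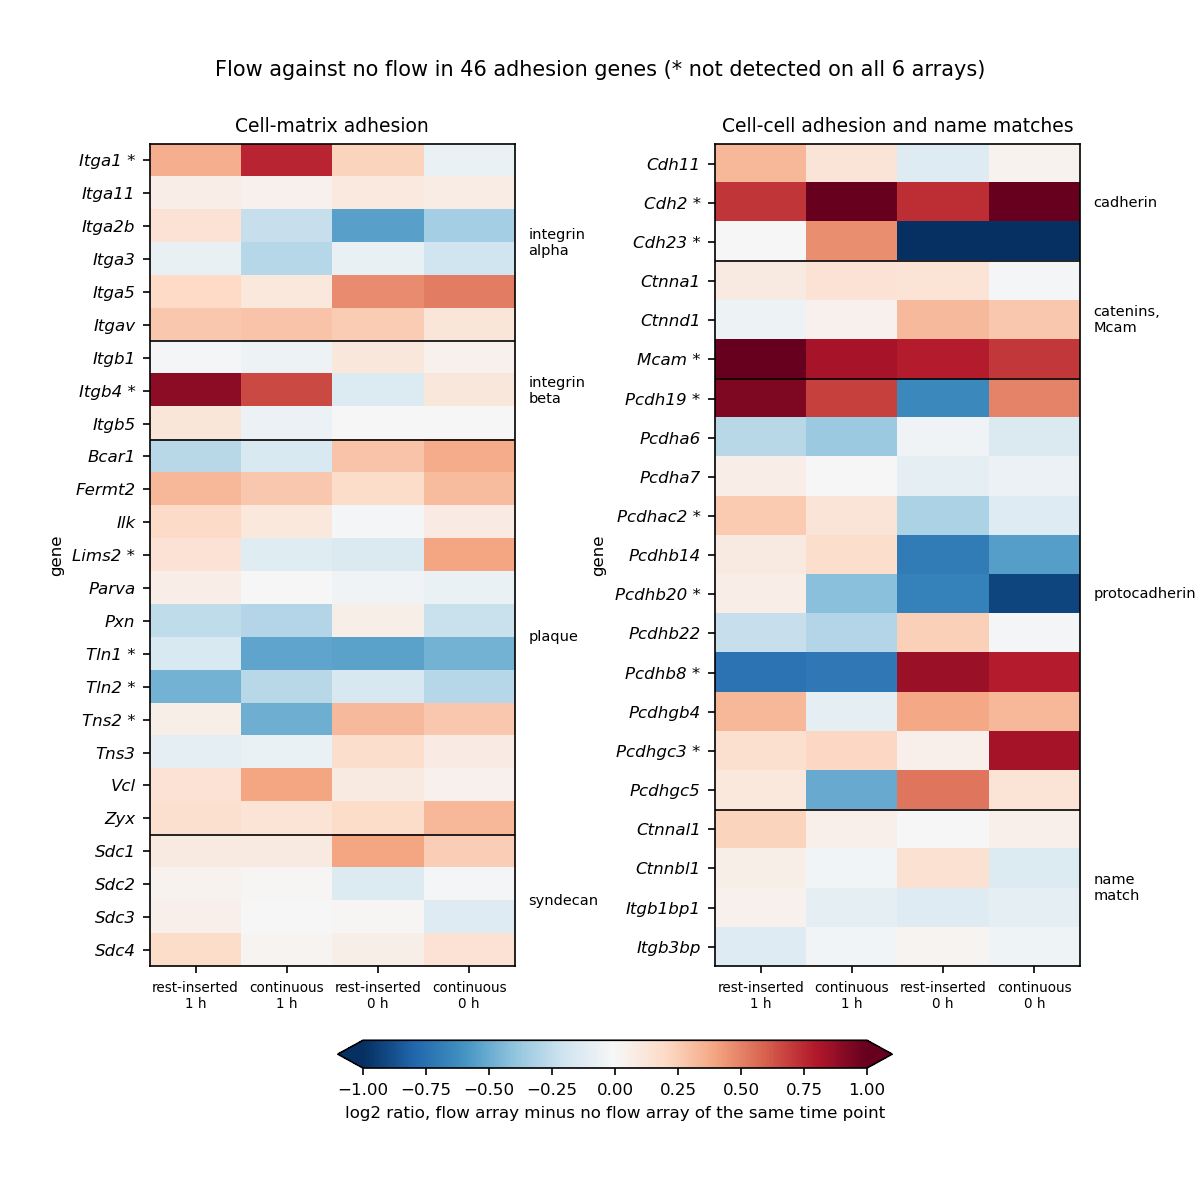
Log2 ratio of each flow array to the no flow array of the same time point (colour, from blue below to red above no flow, with ratios past 1 in either direction drawn at the end colour) for the 46 genes (rows) on the 4 flow arrays (columns), grouped by role. Most cell-matrix rows are pale, and the deepest colours fall on genes marked * that were not detected on all 6 arrays, such as Cdh23 and Mcam.

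In limma, with flow and time point in 1 model, 0 of 46 adhesion genes and 0% of all genes passed an adjusted p of 0.05 for rest-inserted, continuous or any flow against no flow. An unadjusted p under 0.05 was reached by 4, 6 and 8 of the 46 adhesion genes, and by 386, 448 and 439 of all 8566 genes. Among the 8 for any flow, Cdh2 and Mcam passed the filter only through flow arrays. Pcdhb20 and Tln1 passed it only through a no flow array, so these 4 were favoured by the filter. Of genes detected on all 6 arrays, 2, 2 and 3 of 32 adhesion genes were under 0.05, beside 205, 261 and 241 of all 7321. With a variance prior that followed the intensity, still 0 adhesion genes passed, against 0, 5 and 5 of all genes. The test takes the 2 time points as repeats and leaves 2 residual degrees of freedom. Its residual spread holds differences between pooled arrays together with any change of the flow difference between time points. It does not measure the spread between experiments.

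Among the plaque genes, the flow arrays of Fermt2 and Zyx stood clear of both no flow arrays. Fermt2 encodes kindlin-2, which binds the tails of beta integrins and helps to switch them on. Its log2 signal was 10.06 with rest-inserted flow, 10.00 with continuous flow and 9.73 with no flow at 1 h. At 0 h it was 10.07, 10.20 and 9.88 in the same order. Any flow differed from no flow by 0.28 ± 0.08 (SE, limma, adjusted p = 0.760), or 1.21-fold. With the intensity-following prior the adjusted p was 0.0789, the lowest of the 46 genes for flow.

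Zyx encodes zyxin, a LIM domain protein that gathers on strained actin fibres, and it had the highest mean signal of the plaque probes. It gave 13.14 with rest-inserted flow, 13.12 with continuous flow and 12.98 with no flow at 1 h, and 13.21, 13.35 and 13.02 at 0 h. The difference was 0.20 ± 0.08 (SE, limma, adjusted p = 0.818). Under median scaling Fermt2 and Zyx no longer stood clear of both. Vcl encodes vinculin, which binds talin and actin when talin is stretched. It gave 10.60, 10.85 and 10.46 at 1 h and 10.73, 10.68 and 10.63 at 0 h, in the order rest-inserted, continuous and no flow. Its largest ratio was 0.39, with continuous flow at 1 h, and the rest-inserted array of 1 h lay below the no flow array of 0 h, so that the groups overlapped.

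**Figure D2:**
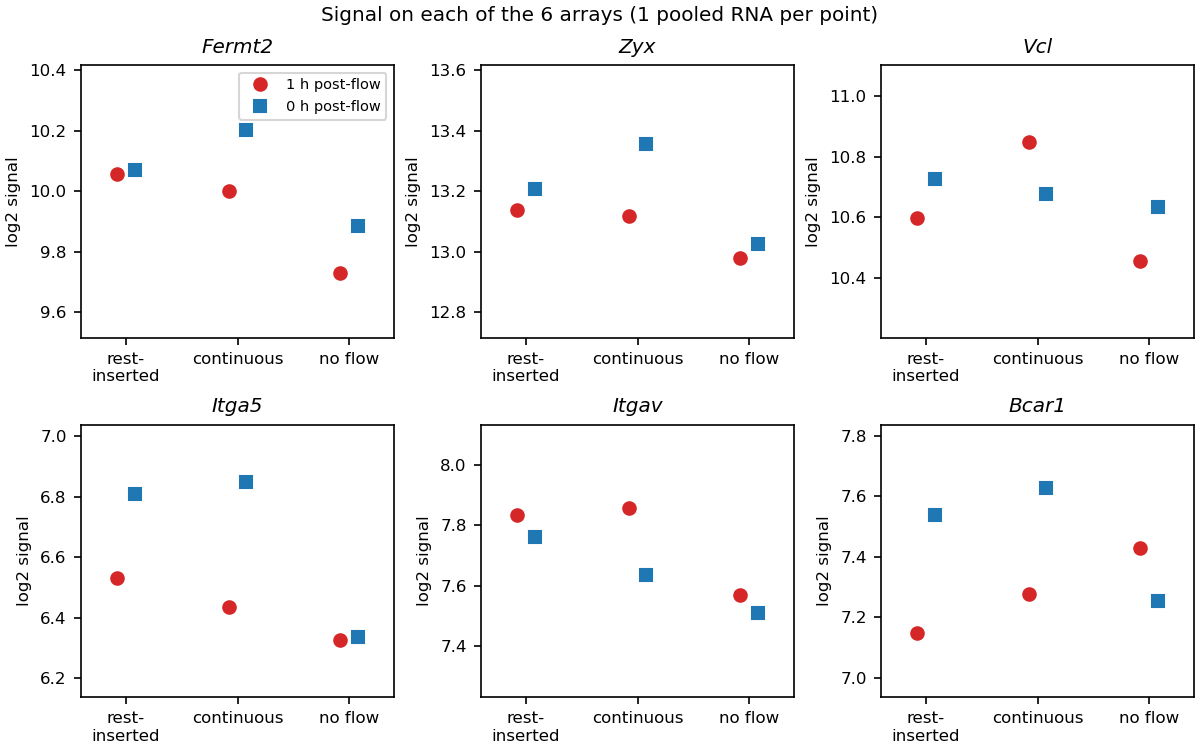
Log2 signal (vertical axis, each panel spanning 0.9 log2 units) of 6 cell-matrix genes on the rest-inserted, continuous and no flow arrays (horizontal axis) at 1 h (circles) and 0 h (squares), 1 pooled RNA per point. Fermt2, Zyx, Itga5 and Itgav lie lowest without flow at both time points, and Bcar1 changes sides between them.

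Bcar1 encodes p130Cas, a docking protein that is phosphorylated when stretched. It was lower with flow at 1 h, at 7.15 with rest-inserted, 7.28 with continuous and 7.43 with no flow, and higher with flow at 0 h, at 7.54, 7.63 and 7.25. The 1 h ratios were -0.28 and -0.15 and the 0 h ratios 0.29 and 0.37. The change of the flow difference between 1 h and 0 h was -0.55 and did not pass the test.

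Pxn (paxillin, a plaque adaptor) was at 6.12, 6.08 and 6.37 at 1 h and at 6.41, 6.13 and 6.36 at 0 h, so that 3 of its 4 flow arrays were below no flow. Ilk (a pseudokinase that links beta integrins to parvin) had ratios between -0.01 and 0.19, Parva (alpha-parvin, its partner) between -0.07 and 0.07, and Tns3 (tensin 3, which binds integrin tails and actin) between -0.10 and 0.18. By the chosen probes none of the 3 had its flow arrays clear of no flow. A dim second Ilk probe, detected on 3 arrays, had all flow arrays above both no flow arrays. Its ratios were 0.31 and 0.72 at 1 h and 0.19 and 0.66 at 0 h. The talin probes were dim. Tln1 was detected only on the no flow array of 1 h, at 4.26, so that no direction can be given at 0 h. Tln2 was detected on all arrays of 1 h, at 4.18 with rest-inserted, 4.38 with continuous and 4.65 with no flow, and at 0 h only without flow, at 4.18. Lims2 (PINCH2) and Tns2 (tensin 2) were also dim, with ratios from -0.14 to 0.40 and from -0.49 to 0.32.

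Of the integrin alpha subunits detected on all 6 arrays, Itga5 and Itgav had the highest ratios of flow to no flow at both time points. Itga5, the alpha chain of the classical fibronectin receptor, was at 6.53, 6.44 and 6.33 at 1 h and at 6.81, 6.85 and 6.34 at 0 h (rest-inserted, continuous, no flow). Both flow arrays of 0 h were thus well above the other 4 arrays. Its ratios of 0.47 and 0.51 at 0 h made it the only cell-matrix gene detected on all 6 arrays that was at least 0.3 above no flow on both flow arrays of 0 h. A second, dimmer Itga5 probe, also detected on all 6, gave 0.06 and 0.19 at 0 h and -0.21 and 0.06 at 1 h.

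Itgav, the alpha chain of the vitronectin receptors, was at 7.84, 7.86 and 7.57 at 1 h and at 7.76, 7.63 and 7.51 at 0 h. All 4 ratios were positive, from 0.12 to 0.29, and a second probe detected on all 6 arrays gave 0.14 and 0.12 at 1 h and 0.47 and 0.57 at 0 h. Another Itgav probe, detected on 2 arrays, gave 0.79 and 0.99 at 1 h but -0.78 and -0.86 at 0 h, and with the mean over the 3 probes any flow differed by 0.43 at 1 h and by -0.04 at 0 h. Any flow differed from no flow by 0.23 ± 0.08 for Itgav and by 0.32 ± 0.11 for Itga5 (SE, limma, adjusted p = 0.792 and 0.809).

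The other alpha subunits did not follow them. Itga3, which pairs with beta 1 to bind laminin, was lower on all 4 flow arrays, with ratios of -0.08 and -0.28 at 1 h and -0.08 and -0.20 at 0 h. Itga11, a collagen receptor chain and the integrin alpha probe with the highest mean signal, had ratios of 0.04 to 0.10. A second Itga11 probe detected on all 6 arrays gave -0.10 and -0.05 at 1 h and 0.09 and 0.08 at 0 h, and another, detected on 4, gave -0.39 and -0.51 at 0 h, so its sign depended on the probe. Itga1, another collagen receptor chain, was detected on 4 arrays and gave ratios of 0.37 and 0.76 at 1 h and 0.22 and -0.06 at 0 h. Itga2b, the platelet integrin chain, was at 4.86, 4.48 and 4.72 at 1 h and at 4.90, 5.10 and 5.44 at 0 h. Its ratios to no flow were -0.54 and -0.34 at 0 h, with its highest value on the unshaken array.

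The beta subunits stayed close to no flow where they were well detected. Itgb1, the beta chain shared by the collagen, laminin and fibronectin receptors, was at 7.49, 7.45 and 7.50 at 1 h and at 7.65, 7.58 and 7.54 at 0 h. Itgb5, a partner of alpha v, was at 9.62, 9.44 and 9.50 at 1 h and at 9.39, 9.40 and 9.40 at 0 h. For both, the differences between flow and no flow arrays were at most 0.12. Itgb4, known from the hemidesmosomes of epithelia, was detected on 3 arrays. Its ratios of 0.89 and 0.66 at 1 h were set against an array at the floor, and the 0 h ratios were -0.14 and 0.11.

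Among the 4 syndecans, all detected on 6 arrays, Sdc1 and Sdc4 were above no flow on every flow array. Sdc1 was at 5.79, 5.79 and 5.70 at 1 h and at 5.97, 5.82 and 5.57 at 0 h. Sdc4, the syndecan of focal adhesions, was at 9.11, 8.96 and 8.93 at 1 h and at 9.09, 9.18 and 9.03 at 0 h. The ratios of Sdc2 and Sdc3 lay between -0.14 and 0.05. A second Sdc1 probe gave 0.26 and 0.23 at 1 h and -0.26 and 0.07 at 0 h, so the sign at 0 h depended on the probe.

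Cell-cell adhesion genes had wider ratios, mostly on dim probes. Mcam (CD146, an adhesion molecule of the immunoglobulin family) was the only adhesion gene detected on all 4 flow arrays and on neither no flow array. The filter was thus passed only through flow arrays, which set its place above no flow in part. Mcam was at 5.09 and 4.91 with rest-inserted and continuous flow at 1 h, and not detected without flow (4.09). At 0 h it was at 4.56 and 4.48, and not detected without flow (3.77). Set against the lowest detected signal, or its own where that was higher, it was at least 1.82-fold and 1.61-fold higher with rest-inserted and continuous flow at 1 h, and at least 1.49-fold and 1.41-fold at 0 h. For this gene limma gave an adjusted p of 0.517. The 2 other Mcam probes, each detected on 3 arrays, did not repeat this, with ratios of -0.55, 0.16, -0.26 and -0.17 for one and 0.55, 0.66, 0.52 and -0.49 for the other (rest-inserted and continuous at 1 h, then at 0 h).

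Cdh2, or N-cadherin, was detected only on the continuous flow arrays. Its signal was 4.04 with rest-inserted, 4.64 with continuous and the floor of 3.32 with no flow at 1 h, and 4.06, 4.38 and again the floor at 0 h. It was at least 1.33-fold higher with continuous than with no flow at 1 h and at least 1.32-fold at 0 h. Cdh2 passed the filter only through these continuous flow arrays, so this direction was set in part by the filter. Cdh23, known from the links between the stereocilia of hair cells, was detected only on the no flow array of 0 h, at 4.67, with both flow arrays of 0 h at the floor. Cdh11, or OB-cadherin, the cadherin named after osteoblasts, was detected on every array. It was at 5.93, 5.72 and 5.59 at 1 h and at 5.83, 6.00 and 5.96 at 0 h, so that the flow and no flow arrays overlapped. A second Cdh11 probe, also detected on all 6 arrays, gave ratios of 0.28 and -0.25 at 1 h and 0.38 and 0.42 at 0 h. The ratios at 0 h thus depended on the probe.

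The catenins were bright. Ctnna1, alpha catenin, had ratios of 0.09 and 0.14 at 1 h and 0.14 and -0.02 at 0 h. Ctnnd1 was at 8.40, 8.49 and 8.45 at 1 h and at 8.75, 8.69 and 8.42 at 0 h. Its 2 flow arrays of 0 h were above all others, with ratios of 0.33 and 0.27.

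The 11 protocadherins of the clustered and unclustered families, cadherin-like proteins best known from neurons, showed no common direction. Of these, 6 were detected on all arrays. The clustered genes are near copies of each other, and those of the alpha and gamma clusters share their last exons, so a probe may read several of them. Pcdhb14 was at 4.81, 4.89 and 4.71 at 1 h and at 4.59, 4.74 and 5.29 at 0 h, below no flow only at 0 h. Pcdhgb4 was at 5.57, 5.15 and 5.24 at 1 h and at 5.59, 5.53 and 5.20 at 0 h. Pcdhgc5 was at 5.28, 4.67 and 5.18 at 1 h and at 5.60, 5.20 and 5.06 at 0 h.

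Pcdha6 was below no flow on all 4 flow arrays, with ratios of -0.27 and -0.37 at 1 h and -0.03 and -0.15 at 0 h. Pcdha7 had ratios within 0.09 of no flow. Pcdhb22, also detected throughout, had ratios of -0.23 and -0.29 at 1 h and 0.24 and -0.01 at 0 h. Pcdhb8 was detected on the 2 flow arrays of 0 h and nowhere else, and Pcdh19 on 3 of the 4 flow arrays and on no unshaken array. Pcdhb20 was detected on the no flow array of 0 h alone (4.24) and Pcdhgc3 on the continuous flow array of 0 h alone (4.15). Pcdhac2, detected on 5 arrays, had ratios of 0.26 and 0.13 at 1 h and -0.32 and -0.13 at 0 h.

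Past a fold of 0.3 log2 units on both flow arrays of a time point, 5 adhesion genes were higher at 1 h (Cdh2, Itga1, Itgb4, Mcam and Pcdh19; 3.62% of all genes were) and 1 was lower (Pcdhb8; 3.67% of all genes). At 0 h 5 were higher (Cdh2, Itga5, Mcam, Pcdhb8 and Pcdhgb4; 3.97% of all genes) and 5 were lower (Cdh23, Itga2b, Pcdhb14, Pcdhb20 and Tln1; 4.02% of all genes). Of the genes detected on all 6 arrays, only Itga5 and Pcdhgb4 were higher and Itga2b and Pcdhb14 lower, all at 0 h, or 6.25% of 32 in each direction. Of all genes detected on all 6 arrays 2.49% were higher and 2.01% lower at 0 h, and 1.78% and 1.53% at 1 h. Pcdhb8 at 1 h and Tln1 at 0 h were detected with neither flow nor no flow. All 5 genes higher at 1 h were detected there only with flow. At 0 h Cdh2, Mcam and Pcdhb8 were detected only with flow, and Cdh23 and Pcdhb20 only without it. Cdh2, Mcam and Pcdh19 passed the filter only through flow arrays, and Pcdhb8 only through those of 0 h. Cdh23 and Pcdhb20 passed only through the no flow array of 0 h. The directions of these genes on those arrays were set in part by the filter. The counts of 5 correspond to 10.9% of the adhesion genes, and they rest mainly on probes near the floor, where small signals give wide ratios. Where the floor was replaced by an offset of 32 the counts were 3 higher and 0 lower at 1 h (0.712% and 0.467% of all genes) and 1 and 1 at 0 h (0.817% and 0.689%).

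Cell-matrix and cell-cell genes were then set side by side. On the matrix side 8 of 25 genes (32%) were above no flow on all 4 flow arrays, and on the cell-cell side 3 of 17 (17.6%), the 3 that no unshaken array detected, beside 11.9% of all genes. Among genes detected on all 6 arrays, these were 8 of 19 cell-matrix genes (42.1%) and 0 of 9 cell-cell genes, beside 12.1% of all such genes. Under median scaling they were 4 of 25 (16%) and 2 of 17 (11.8%), beside 5.5% of all genes. No test was made of the difference between the classes, since the genes of a class are not replicates.

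The class medians were close to 0. For cell-matrix genes the median ratio was 0.09 with rest-inserted and 0.01 with continuous flow at 1 h, and 0.06 and 0.08 at 0 h. Cell-cell genes gave 0.09 and 0.13 at 1 h and 0.05 and 0.04 at 0 h. The median over all genes was within 0.01 of 0 on each array. Under median scaling the median of any flow at 0 h moved to -0.03 for cell-matrix and to -0.05 for cell-cell genes, so the sign of these medians at 0 h is not settled, whereas all genes moved to -0.13 and -0.06 with rest-inserted and continuous flow.

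**Figure D3:**
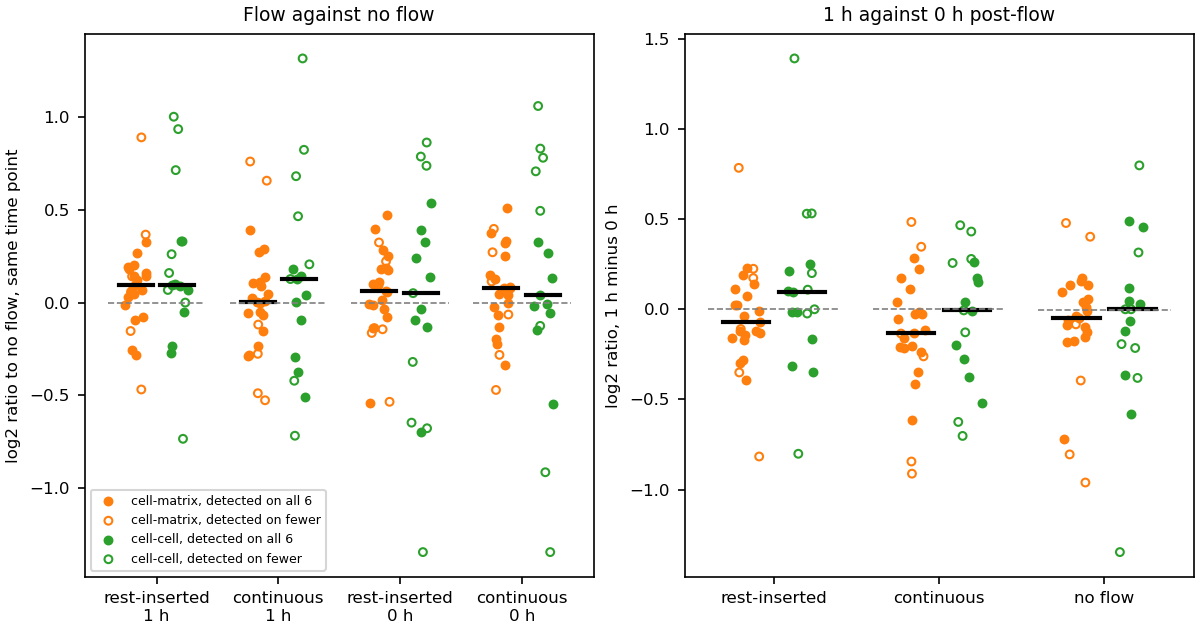
Log2 ratio of flow to no flow (left, by flow array) and of 1 h to 0 h (right, by flow condition) for cell-matrix and cell-cell genes, with filled points for genes detected on all 6 arrays, open points for the others, black bars at the class medians and dashed lines at the median of all genes. The widest ratios are open points, and the cell-matrix bars of 1 h against 0 h lie below 0 in all 3 conditions, at -0.07, -0.13 and -0.05.

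With both kinds of flow taken as repeats at each time point, limma again called 0 of 46 adhesion genes and 0% of all genes at 1 h, at 0 h and for the difference between them. The intensity-following prior called no adhesion gene either. The no flow mean of each time point is a single array in this model.

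The second question was how the genes differed between 1 h and 0 h. No member passed the test. Of the cell-matrix genes 10 of 25 (40%) were lower at 1 h than at 0 h in all 3 flow conditions (Fermt2, Itga1, Itga11, Itga2b, Itga3, Itga5, Itgb1, Lims2, Tns2 and Zyx), and of the cell-cell genes 0 of 17, beside 18.1% of all genes. With Itgb3bp, 11 of 46 genes did so. They include 5 of the 6 integrin alpha chains, Itgav being the exception. In the other direction 9 of 46 (19.6%) were higher at 1 h in all 3 conditions, beside 17.4% of all genes. These were Ctnnal1, Itgav, Itgb5, Mcam, Parva, Pcdha6, Sdc3, Tln1 and Tln2. By class they were 6 of 25 cell-matrix genes (24%) and 2 of 17 cell-cell genes (11.8%). Tns2, counted as lower, passed the filter only through flow arrays of 0 h. Tln1, counted as higher, passed only through the no flow array of 1 h. The directions of Tns2 and Tln1 over time were thus set in part by the filter. Among the 19 cell-matrix genes detected on all 6 arrays 7 (36.8%) were lower and 4 (21.1%) higher. Among the 9 such cell-cell genes 0 were lower and 1 higher. Of all genes detected on all 6 arrays 18.4% were lower and 18.5% higher.

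The size of the difference varied from gene to gene. For Itga5 the log2 ratio of 1 h to 0 h was -0.28 with rest-inserted flow, -0.41 with continuous flow and -0.01 with no flow. In the same order it was -0.01, -0.20 and -0.16 for Fermt2, and -0.12, -0.21 and -0.12 for Itga3. Itga11 gave -0.12, -0.12 and -0.09, nearly alike in the 3 conditions. Itga2b gave -0.04, -0.61 and -0.72. Sdc3, a syndecan also known from nerve, was higher at 1 h by 0.19, 0.28 and 0.16, or 0.21 over the 3 pairs, and Pcdha6 was higher by 0.25, 0.26 and 0.49.

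In limma 0 of 46 adhesion genes and 0% of all genes passed for 1 h against 0 h, while 7 and 841 were under 0.05 before adjustment. The 7 include Tln1, which passed the filter only through an array of 1 h. Of genes detected on all 6 arrays, 3 of 32 adhesion genes were under 0.05, beside 612 of all 7321. The intensity-following prior called 246 of all genes and 0 adhesion genes, with Sdc3 nearest at an adjusted p of 0.105. The median of 1 h against 0 h was -0.11 for cell-matrix and -0.08 for cell-cell genes, and 0.002 for all genes. Median scaling moved all genes to -0.11, the classes to -0.21 and -0.19, and the counts of genes lower at 1 h in all 3 conditions to 13 of 25 and 4 of 17, beside 36.6% of all genes. Every condition has 1 array per time point, so the time after flow and any difference in handling between the time points cannot be told apart.

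The third question was whether rest-inserted and continuous flow differed. Rest-inserted flow held less shaking in total than continuous flow, and by its schedule it ended with a rest. Its last shaking thus lay further before RNA was taken. Rest, total shaking and time since the last shaking cannot be told apart here, and their separate effects were not tested. A gene called higher with rest is one higher with rest-inserted flow. At both time points 15 of 46 genes (32.6%) were higher with rest-inserted than with continuous flow, beside 26.1% of all genes, and 4 (8.70%) were lower, beside 24.5%. The 4 lower genes were Bcar1, Cdh2, Pcdhb14 and Pcdhgc3. Cdh2 and Pcdhgc3 passed the filter only through continuous flow arrays, so their place below was set in part by the filter. Among the 32 genes detected on all 6 arrays 12 (37.5%) were higher, beside 26.5% of all such genes. Lower were 2 (6.25%), beside 24.6%. Under median scaling the counts over the 46 genes were 14, beside 19.9% of all genes, and 7, beside 22.3%. The medians over the 46 genes were 0.06 at 1 h and 0.03 at 0 h.

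Pcdhgc5 had the widest ratio among genes detected on all 6 arrays, at 0.61 at 1 h and 0.40 at 0 h, with the continuous flow array of 1 h below the other 5. Pxn was higher with rest by 0.04 and 0.28, Itga3 by 0.21 and 0.12, and Sdc1 by 0.003 and 0.15. For Vcl the ratio of rest-inserted to continuous flow was -0.25 at 1 h and 0.05 at 0 h, and Fermt2, Zyx and Itga5 were each higher with rest at 1 h by under 0.1 and lower at 0 h. In limma 0 of 46 genes and 0% of all genes were called for rest-inserted against continuous flow, and 0 adhesion genes with the intensity-following prior. Before adjustment 2 adhesion genes and 348 of all genes were under 0.05. The 2 were Pcdhgc5 and Cdh2, which passed the filter only through continuous flow arrays. Of genes detected on all 6 arrays, 1 of 32 adhesion genes was under 0.05, beside 176 of all 7321.

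**Figure D4:**
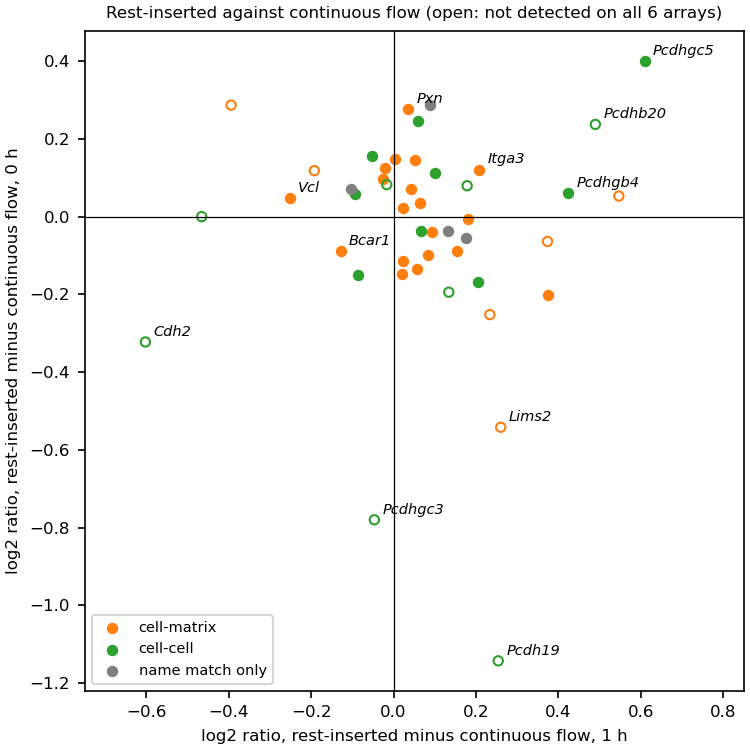
Log2 ratio of rest-inserted to continuous flow at 1 h (horizontal axis) and at 0 h (vertical axis) for the 46 genes, coloured by class, with open points for genes not detected on all 6 arrays. Of the 46 points 34 lie within 0.3 of 0 on both axes, Pcdhgc5 stands at the upper right (0.61 and 0.40), and Cdh2 at the lower left (-0.60 and -0.32).

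The chosen probes of the 4 genes that match by name only had small ratios. Itgb1bp1 (ICAP-1, which binds the tail of beta 1 integrin) had ratios between -0.13 and 0.04, though its other probe, detected on all 6 arrays, gave 0.25 and 0.34 at 1 h. The ratios of Itgb3bp (a centromere protein that also binds beta 3 integrin) lay between -0.13 and 0.03. Ctnnal1 (alpha-catulin, a relative of alpha catenin and vinculin) had a ratio of 0.23 with rest-inserted flow at 1 h and lay within 0.05 of no flow on the other flow arrays, while its dim second probe, detected on 1 array, gave 1.06 with continuous flow at 0 h. Ctnnbl1, which works with the splicing machinery, had ratios between -0.13 and 0.15.

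Other genes of the same structures were counted from lists written for the purpose. Of 45 plaque partners 35 had a probe, and 14 of these (40%) were above no flow on all 4 flow arrays and 2 (5.71%) were below, beside 11.9% and 12.6% of all genes. The counts from these lists were made on quantile-normalized values and not repeated under median scaling. Under that scaling 5.5% of all genes were above on all 4. Pdlim7, which brings LIM-binding proteins to actin, had ratios of 0.12 and 0.19 at 1 h and 0.41 and 0.48 at 0 h. Flnc, the muscle type filamin that crosslinks actin, had 0.11 and 0.26 at 1 h and 0.20 and 0.23 at 0 h, and Actn4, an actinin, between 0.07 and 0.21. The 2 below were Rsu1, a partner of the PINCH proteins, with ratios of -0.30 and -0.22 at 1 h and -0.24 and -0.15 at 0 h, and Pdlim1, with -0.02 and -0.06 at 1 h and -0.01 and -0.16 at 0 h.

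Of 19 matrix ligands 12 had a probe, and 5 (41.7%) were above on all 4 arrays and 0 below, beside the same 11.9% and 12.6%. Fn1, or fibronectin, the ligand of the Itga5 receptor, had ratios of 0.06 and 0.05 at 1 h and 0.08 and 0.20 at 0 h. Ccn2, a matricellular protein that integrins bind, was the widest, at 0.20 and 0.35 at 1 h and 1.01 and 1.86 at 0 h, for rest-inserted and continuous flow. Its relative Ccn1 was at 0.79 and 1.01 at 0 h and -0.51 and -0.32 at 1 h. Of 28 other cell-cell adhesion genes 14 had a probe, with 2 (14.3%) above on all 4, close to the 11.9% of all genes, and 1 (7.14%) below, beside 12.6%.

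By limma none of these listed genes passed for flow or time. With the intensity-following prior Ccn2 was called for continuous flow (adjusted p = 0.00244) and for any flow (adjusted p = 0.00991). For 1 h against 0 h that prior called Ccn2 (adjusted p = 0.00347), Ccn1 (adjusted p = 9.67e-05), Thbs1 (adjusted p = 0.0132), Col1a1 (adjusted p = 0.00971), Arhgef6 (adjusted p = 0.0116) and Pdlim7 (adjusted p = 0.0368), all of them lower at 1 h. The median of 1 h against 0 h was -0.16 for the matrix ligands, 0.01 for the plaque partners and 0.07 for the other cell-cell genes.

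Probes of the same gene often differed. For 9 genes with a chosen probe detected on all 6 arrays, 10 further probes were also detected on all 6, and 5 of these had the same sign of any flow against no flow at 1 h as the chosen probe and 6 at 0 h. The further Itgb1 probe gave -0.14 and -0.06 at 1 h and -0.15 and 0.30 at 0 h. The 2 further Tns3 probes gave ratios of 0.02 to 0.29 at 1 h and -0.22 to -0.07 at 0 h, against the signs of the chosen probe.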

How the data were processed

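The intensity values, as deposited, came from GenomeStudio and were background-subtracted but not normalized between arrays. A detection p-value was deposited beside each signal. On the rest-inserted flow 1 h array this column holds p-values for 20000 rows and repeats the signal in the other 25281, where a signal of at least 17.83566, the lowest detected among those 20000, was taken as detected. For the deposited log2 values the authors had applied quantile normalization, a floor of 10 and a filter to probes detected on at least 1 array (15686 of 45281). The same steps applied here to the intensities gave these log2 values within 5e-08. Probes with no symbol in the platform table, several symbols or a RIKEN name were left out, and 13183 probes of 8566 genes remained.

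limma 3.58.1 (R 4.3.3) was fitted to all 6 arrays, with flow and time point in an additive model, and with any flow or no flow at each time point. P-values were adjusted by the Benjamini-Hochberg method over 13183 probes. Both models were tested on simulated data with known changes. Each difference is the tested condition minus its comparison, so positive means higher with flow, at 1 h or with rest. The genes named were, in each role, the one with the highest mean signal, up to 2 with the highest and up to 2 with the lowest ratios among those detected on all 6 arrays, and all past 0.3 on both flow arrays of a time point. Genes named for counts of arrays above or below no flow, for second probes or from the further lists were chosen after their values were seen. The members, lists and tests were chosen with earlier results of these data known. Genes of the rule without a named probe past the filter, among them Ptk2, were not analysed here. No column of values was left out. The number of arrays limits the precision.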

Additional observations from a re-analysis of the deposited data

Results flagged for a closer look

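In 9 of the 46 adhesion genes both flow arrays lay on one side of no flow at 1 h and both on the other side at 0 h, which is 19.6% of them beside 22.7% of all genes. Whether the flow difference changed between 1 h and 0 h was tested in limma for each gene, and none passed. In Bcar1 the log2 difference of any flow from no flow changed by -0.55 (1 h minus 0 h). The same change was 0.76 in Pcdhb14, -0.21 in Tns3, -0.11 in Itgb1, 0.11 in Pcdha7, 0.10 in Sdc2 and 0.087 in Parva, all detected on 6 arrays. Pcdhb8, detected on 2 arrays, changed by -1.55, and Pcdhac2, detected on 5, by 0.42. Pcdhb8 passed the filter only through the flow arrays of 0 h and was detected on no array of 1 h. Its change was thus set in part by the filter. Among genes detected on all 6 arrays, 0 had both flow arrays at least 0.2 on one side at one time point and at least 0.2 on the other side at the other. No condition holds enough arrays to look for outlying arrays within a group.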

How the results depend on the processing

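The call of 0 adhesion genes in each limma contrast was the same under every setting that could be fitted: median scaling, an offset of 32 in place of the floor, the mean over probes, probes detected on all 6 arrays, no detection filter, the intensity-following prior, no term for the time point and each array left out. Without a no flow array the model by time point could not be fitted, and without the detection filter only these calls could be given, since gene symbols were at hand for the filtered probes. The class medians and fold counts moved more. Median scaling gave medians of -0.0293 (any flow at 0 h) and -0.212 (1 h against 0 h) for cell-matrix genes and -0.0487 and -0.186 for cell-cell genes. With the offset the genes past 0.3 on both flow arrays numbered 3 higher and 0 lower at 1 h and 1 and 1 at 0 h, the cell-matrix median at 0 h was 0.0648, and the cell-cell medians were 0.0632 at 1 h, 0.0473 at 0 h and -0.0140 for 1 h against 0 h. With the mean over all probes of a gene, 3 genes were past 0.3 higher at 0 h, and the medians were -0.00252 (0 h) and -0.0450 (1 h against 0 h) for cell-matrix genes and 0.116 (0 h) for cell-cell genes. Over probes detected on all 6 arrays the fold counts were 0 and 0 at 1 h and 2 and 2 at 0 h, and the cell-cell median at 1 h was 0.0351. Leaving out each flow array in turn, the medians of any flow against no flow ranged from 0.00518 to 0.0929 at 1 h and from 0.0599 to 0.0780 at 0 h for cell-matrix genes, and from 0.0930 to 0.127 and from 0.0388 to 0.0586 for cell-cell genes. Without protocadherins the cell-cell medians were 0.232 at 1 h and 0.178 at 0 h. The causes were not tested. The labels number no replicates, so there was no replicate number to use as a block, and the additive model already pairs 1 h with 0 h within each flow condition.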
